A study of Rattus norvegicus with 6 samples.

Results

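The prostanoid synthesis and receptor genes described here are those of a fixed list of 10 gene symbols, looked up by name in the deposited gene count table of primary rat brain microvascular endothelial cells (rBMECs). The list holds the cyclooxygenases Ptgs1 and Ptgs2, the terminal synthases Ptgis, Ptges, Ptges2, Ptges3 and Tbxas1, and the receptors Ptger2, Ptger4 and Ptgir. Of the 10 names, 9 had a row among the 33566 genes of the table. No row carried the name Ptgis, and 2 rows outside the list whose protein match is rat prostacyclin synthase are given in its place. With at least 10 counts summed over all libraries as the minimum, 8 of the 9 genes were tested. Only Ptger2 was not, with 0 counts in every library.

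The study compared 3 libraries of rBMECs treated with homocysteine (Hcy) with 3 libraries of rBMECs given the vehicle (Veh), which was sterile water. The labels give a dose of 100 μM Hcy and a treatment of 24 h, while the treatment protocol also names a prepared Hcy solution of lower concentration. Cells came from the cerebral cortex of Sprague-Dawley rats 18 to 22 days of age, where the paper's methods name the cerebral forebrain. They were purified in culture and were used after a passage, and the labels give no other treatment for either group. They are cells in culture, outside the vessel wall and without blood flow. The labels call the replicates biological but do not say whether each came from its own cell isolation, so p-values measure the spread between these 6 libraries.

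Prostanoids are short-lived lipid signals made from arachidonic acid, which phospholipases release from membranes. The cyclooxygenases convert it to prostaglandin H2, and terminal synthases turn that intermediate into prostaglandin E2, prostacyclin, thromboxane A2 or other prostanoids. In blood vessels, prostacyclin widens the vessel and restrains platelets, thromboxane A2 does the opposite, and prostaglandin E2 acts through several receptors. In brain endothelium, COX-2 and the inducible prostaglandin E synthase are known for carrying fever signals from blood to brain.

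Sequencing gave 14024997 to 16764584 counts a library. A level of 3 counts, taken as the floor of detection, corresponds to 0.178 to 0.215 CPM (counts scaled to a common library size) and covers counting error only. Of 12 endothelial markers, 11 had a row, 10 were tested and 0 of these passed an adjusted p of 0.05 in edgeR. DESeq2 passed 2, Vwf and Kdr, both higher in Hcy. The markers' summed level was 9453 to 9879 CPM in Hcy and 7822 to 9038 CPM in Veh, and Cldn5 was listed at 0. Mural cell markers summed to 680 to 707 CPM in Hcy and 1123 to 1352 CPM in Veh, and most of this sum was Tagln. Of the 10, Acta2, Cnn1 and Tagln were lower in Hcy at an adjusted p of 0.05 in edgeR, and 0 were higher. The rest did not pass it. Kcnj8 and Myh11 had log2 fold changes of -0.99 and -0.04. Those of Pdgfrb, Rgs5, Cspg4, Abcc9 and Des were 0.55 to 1.66. Veh replicate 3 stood apart on the second principal component, at 30.4 against -19.0 to 9.98 for the other libraries. Without it, 957 of 14352 genes passed the adjusted p in edgeR, against 341 of 14603 with it. Values of single libraries stand in the order of replicates 1, 2 and 3, and SE is the standard error of a log2 fold change, Hcy over Veh.

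None of the 8 prostanoid genes tested was called as differentially expressed between Hcy and Veh, which does not show that they were unchanged. A gene was called when its p from the quasi-likelihood test of edgeR, adjusted by Benjamini-Hochberg over all 14603 genes tested, was 0.05 or less and its log2 fold change was 1 or more in size, which 0.486% of them met (0.253% higher and 0.233% lower in Hcy). DESeq2 also called 0 of the 8 and 0.644% of all genes. By adjusted p alone edgeR gave 0 of the 8, beside 2.34% of all genes. At an unadjusted p of at most 0.05, edgeR gave 1 of the 8, Tbxas1, where 13.4% of all genes tested passed (7.44% higher and 5.95% lower), and DESeq2 gave the same gene. The log2 fold changes of the 8 genes ran from -0.20 to 0.77, with a median of 0.05, and the median over all genes tested was -0.02. In 1 of the 8, Tbxas1, the groups did not overlap, and this held for 20.1% of all genes tested (10.8% higher and 9.27% lower in Hcy).

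**Figure D1:**
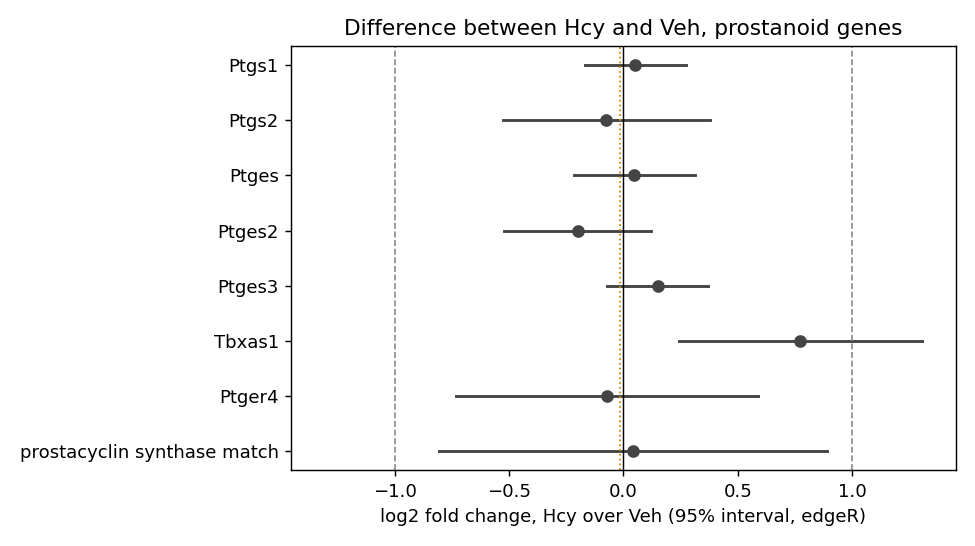
Log2 fold change of Hcy over Veh (x axis) for 7 prostanoid genes and the tested row that matches prostacyclin synthase (y axis), with 95% intervals from edgeR as lines, dashed lines at a log2 fold change of 1 in either direction and a dotted line at the median of all genes tested, -0.02. Tbxas1, at 0.77, is the only gene drawn whose interval leaves out 0, and Ptgir and Ptger2 are not drawn because their counts lay near or at 0.

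The genes differed far more from each other than between groups. To compare genes, counts were also divided by gene length and given as RPKM (CPM per kilobase of gene length). In Veh the highest level was that of Ptges3, at 150 ± 14.4 RPKM (SD, n = 3). Ptges followed at 12.5 ± 0.772 RPKM, Ptgs1 at 10.5 ± 0.925 RPKM, Ptges2 at 6.20 ± 0.695 RPKM and Ptgs2 at 3.09 ± 0.595 RPKM (SD, n = 3 each). Tbxas1 stood at 1.22 ± 0.269 RPKM and Ptger4 at 1.00 ± 0.231 RPKM (SD, n = 3 each), and the Veh libraries of these neighbours in the order overlapped. In Hcy the order was the same, but there the libraries of Tbxas1, at 2.08 ± 0.285 RPKM, lay above all those of Ptger4, at 0.954 ± 0.0429 RPKM, and overlapped those of Ptgs2, at 2.93 ± 0.663 RPKM (SD, n = 3 each). Ptges and Ptgs1 did not overlap within either group.

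**Figure D2:**
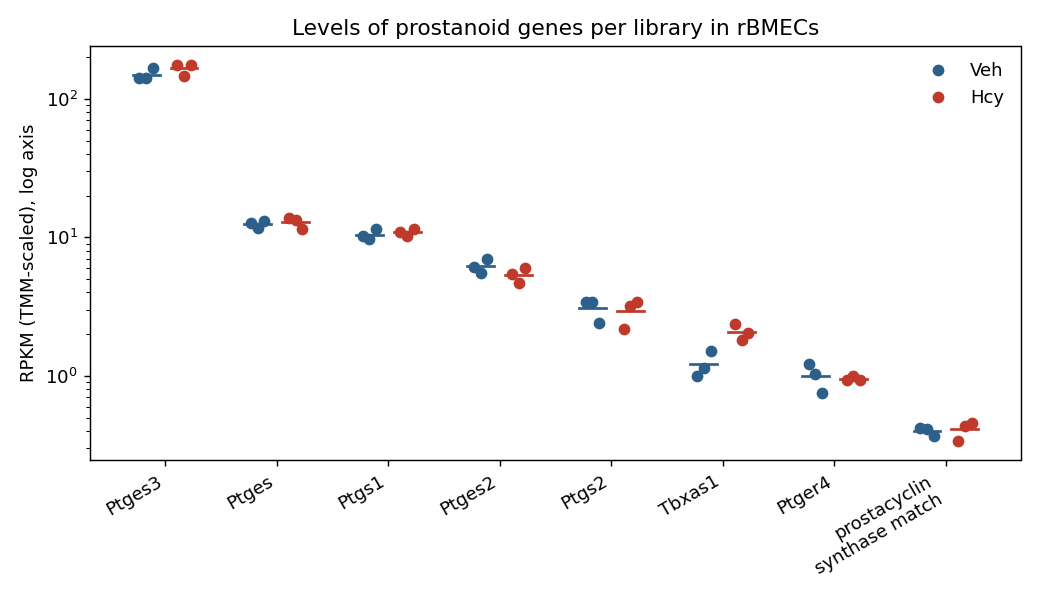
Level of each gene in RPKM on a log axis (y axis) for 7 prostanoid genes and the prostacyclin synthase match (x axis), with points for the 3 libraries of each group and short lines for group means. Ptges3, at 150 RPKM in Veh, lies more than a step of the log axis above Ptges at 12.5 RPKM, and Tbxas1 is the only gene whose Hcy points all lie above its Veh points.

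Reference promoters are shown for the 2 cyclooxygenases, which open the pathway, for Tbxas1, whose groups did not overlap, and for Ptges3, which had the highest level. They are RefSeq sequences of build GRCr8, from 250 bases before to 50 bases after the start of the gene, 5′ to 3′ on the plus strand, which is the strand of all 4 genes. Capitals mark CG dinucleotides, the usual sites of DNA methylation, which the study measured by other assays and these libraries do not show.
Tbxas1 (chr4:68631635-68631934): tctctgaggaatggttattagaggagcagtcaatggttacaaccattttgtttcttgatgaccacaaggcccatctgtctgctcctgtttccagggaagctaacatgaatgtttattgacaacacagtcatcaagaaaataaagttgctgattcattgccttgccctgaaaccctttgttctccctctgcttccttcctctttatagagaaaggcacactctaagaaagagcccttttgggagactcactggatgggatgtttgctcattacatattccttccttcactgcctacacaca
Ptgs1 (chr3:39981169-39981468): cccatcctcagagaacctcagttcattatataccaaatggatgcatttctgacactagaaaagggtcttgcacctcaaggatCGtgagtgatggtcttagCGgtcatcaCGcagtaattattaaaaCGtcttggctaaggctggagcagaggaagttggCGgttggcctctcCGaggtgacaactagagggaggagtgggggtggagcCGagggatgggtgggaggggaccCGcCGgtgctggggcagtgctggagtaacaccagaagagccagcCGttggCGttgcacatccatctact
Ptgs2 (chr13:64713813-64714112): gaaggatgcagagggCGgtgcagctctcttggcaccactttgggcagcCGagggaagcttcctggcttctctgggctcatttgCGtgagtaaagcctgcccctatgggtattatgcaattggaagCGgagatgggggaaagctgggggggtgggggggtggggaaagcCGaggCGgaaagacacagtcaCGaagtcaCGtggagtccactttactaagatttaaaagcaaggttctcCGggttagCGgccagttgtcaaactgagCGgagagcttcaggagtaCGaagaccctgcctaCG
Ptges3 (chr7:1075059-1075358): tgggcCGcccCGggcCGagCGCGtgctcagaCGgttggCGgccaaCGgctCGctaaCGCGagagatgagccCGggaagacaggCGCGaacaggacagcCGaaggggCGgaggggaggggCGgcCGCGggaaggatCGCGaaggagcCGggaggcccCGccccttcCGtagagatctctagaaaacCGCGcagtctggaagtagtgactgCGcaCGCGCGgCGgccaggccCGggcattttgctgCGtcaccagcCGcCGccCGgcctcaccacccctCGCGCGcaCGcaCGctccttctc

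Promoters of 8 of the 10 listed genes matched by symbol, and Ptgis and Ptges2 were not matched. The Tbxas1 window held 0 CG dinucleotides, Ptgs1 held 11, Ptgs2 held 13 and Ptges3 held 41. The windows of Ptges, Ptger2 and Ptger4 held 13 each and that of Ptgir 9. Over all 33469 promoter windows of this length the median was 7, and 94.5% held at least 1 CG. CG reads the same on both strands, and a count in this window says nothing of whether a site was methylated.

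Ptgs1 encodes COX-1, the cyclooxygenase that most tissues make all the time. Its row lies on chromosome 3 from 15560712 to 15582344 on the plus strand. It was at 30.5, 28.7 and 32.0 CPM in Hcy and at 28.9, 27.1 and 32.2 CPM in Veh. The ranges of the groups overlapped almost wholly. Its log2 fold change was 0.05 (SE 0.10, edgeR adjusted p = 0.884), and the 95% interval ran from -0.17 to 0.27.

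Ptgs2 encodes COX-2, the cyclooxygenase that inflammatory signals and growth factors induce. Its row lies on chromosome 13 from 67351087 to 67359335 on the plus strand. It was at 9.55, 13.9 and 15.0 CPM in Hcy and at 15.0, 15.0 and 10.5 CPM in Veh. Each group thus held 1 library well below the other pair, Hcy replicate 1 and Veh replicate 3. The log2 fold change was -0.07 (SE 0.20, edgeR adjusted p = 0.926), with a 95% interval from -0.53 to 0.38. It was 0.10 without Hcy replicate 1 and -0.22 without Veh replicate 3, and neither passed the test.

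Per length, Ptgs2 was the lesser cyclooxygenase transcript in all 6 libraries. The ratio of Ptgs2 to Ptgs1 in RPKM was 0.201, 0.310 and 0.301 in Hcy and 0.334, 0.356 and 0.210 in Veh. The mean ratio was 0.270 ± 0.0607 (SD, n = 3) in Hcy and 0.300 ± 0.0789 (SD, n = 3) in Veh. On the log2 scale the groups differed by -0.14, Hcy minus Veh, which lay within their spread (p = 0.5, two-sided exact permutation test over libraries, where 3 against 3 cannot give a p below 0.1). Leaving out Hcy replicate 1 turned this difference to 0.0648, and leaving out Veh replicate 3 gave -0.38.

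Ptges encodes the membrane-bound prostaglandin E synthase that is induced together with COX-2 in inflammation, and its row lies on the minus strand of chromosome 3 from 9727408 to 9738752. It was at 17.5, 16.8 and 14.5 CPM in Hcy and at 16.0, 14.7 and 16.5 CPM in Veh. The groups overlapped, and its log2 fold change was 0.05 (SE 0.12, edgeR adjusted p = 0.920), with a 95% interval from -0.22 to 0.31. Ptges2 encodes a second membrane-associated enzyme of this activity, with a row on the plus strand of chromosome 3 from 11424099 to 11431402. Its levels were 11.8, 10.1 and 13.1 CPM in Hcy and 13.2, 12.04 and 15.0 CPM in Veh. Its log2 fold change of -0.20 did not pass the test (SE 0.14, edgeR adjusted p = 0.622), and the 95% interval ran from -0.52 to 0.12. The value was -0.10 without Hcy replicate 2 and -0.11 without Veh replicate 3, and neither passed the test.

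Ptges3 encodes p23, a cytosolic protein with prostaglandin E synthase activity that is better known as a partner of the chaperone Hsp90. Its row lies on the plus strand of chromosome 7 from 2479311 to 2497013. Its levels were 290, 245 and 293 CPM in Hcy and 237, 233 and 276 CPM in Veh. Hcy replicate 2 lay within the range of the Veh libraries. The log2 fold change was 0.15 (SE 0.10, edgeR adjusted p = 0.582), with a 95% interval from -0.07 to 0.37. It was 0.23 without Hcy replicate 2 and also without Veh replicate 3, where its unadjusted p was 0.0141 and its adjusted p 0.122 in edgeR and 3018 of 14352 genes had an unadjusted p of at most 0.05. A row with the same protein match, Ptges3l1, held at most 5 counts in any library, or 0.0908% of the Ptges3 counts in all. Reads that match both rows were not measured.

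Tbxas1 encodes thromboxane A synthase, which is abundant in platelets and macrophages. Its row lies on chromosome 4 from 66670618 to 66846805 on the plus strand. It had 65, 53 and 67 counts with Hcy and 33, 35 and 43 with Veh. These are 4.67, 3.56 and 4.00 CPM in Hcy and 1.96, 2.23 and 2.98 CPM in Veh. Every Hcy library lay above every Veh library, as for 10.8% of all genes tested, and the nearest values were those of Hcy replicate 2 and Veh replicate 3. The means were 4.08 ± 0.558 CPM with Hcy and 2.39 ± 0.527 CPM with Veh (SD, n = 3 each). The log2 fold change was 0.77 (SE 0.23), with a 95% interval from 0.24 to 1.30 before adjustment over all genes, and it did not pass the test (edgeR adjusted p = 0.163). By p, Tbxas1 was gene 835 of the 14603 tested. Without Veh replicate 3 the log2 fold change was 0.96 and the adjusted p 0.0486, which passes the p threshold, as 957 of 14352 genes did in that fit, but not the fold threshold. Over all alternatives its adjusted p lay between 0.0486 and 0.434.

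Markers of macrophages and platelets, where Tbxas1 is abundant, and of microglia and erythroid cells were low. The 7 microglia and macrophage markers summed to 1.68 to 2.66 CPM in Hcy and 1.52 to 1.72 CPM in Veh. Ptprc and Cx3cr1 were listed at 0 in all libraries, 4 of the 7 markers never exceeded 3 counts, and 0 passed an adjusted p of 0.05. The 5 platelet and erythroid markers summed to 2.08 to 3.52 CPM in Hcy and 1.47 to 2.28 CPM in Veh, and Ppbp was at 0. Of these lists, Itga2b was higher in all Hcy libraries, at 2.54 CPM against 1.59 CPM in Veh on average, with a log2 fold change of 0.69 (edgeR adjusted p = 0.368), while Pf4, the other platelet marker tested, had 6 counts in Hcy and 10 in Veh. Cd68 had 67 counts in all in Hcy and 42 in Veh, with overlapping groups and a log2 fold change of 0.74 (edgeR adjusted p = 0.522), while the other macrophage markers tested, Csf1r and Aif1, had 8 and 16 counts in Hcy and 14 and 16 in Veh. Their part in the Tbxas1 difference was not tested, and in bulk samples more or fewer cells of a type and more or less RNA per cell cannot be told apart.

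Genes were also ranked by how closely their levels over the 6 libraries followed those of Tbxas1. Among 12295 other genes, the 5 with the highest Pearson correlation of log2 CPM with it were Asns, Cthrc1, AC141102.1, Ino80c and Txndc12, with r from 0.995 to 0.997, and 347 genes had an r above 0.9. How many genes would reach this for a gene other than Tbxas1 was not counted. These values describe 6 libraries in 2 groups, and the difference between groups is part of each r. None of the 5 passed an adjusted p of 0.05, with values from 0.0863 to 0.338 in edgeR.

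Prostacyclin synthase, which makes the vasodilating prostanoid prostacyclin in endothelium, could be read only through protein matches. The row AABR07054614.1 (minus strand of chromosome 3, 163950777 to 163986059) had 8, 11 and 13 counts with Hcy and 12, 11 and 9 with Veh. The groups summed to 32 counts each, and the log2 fold change was 0.04 (SE 0.37, edgeR adjusted p = 0.981). Its 95% interval from -0.81 to 0.89 was wide. The other matching row, AABR07034131.1, had 0 counts in all libraries. Neither row was a member by name, and they were found through their descriptions after the table was read.

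The receptors were low. Ptger4 encodes EP4, a prostaglandin E2 receptor that raises cyclic AMP, with a row on the minus strand of chromosome 2 from 54952821 to 54963448. It had 19, 22 and 23 counts with Hcy and 30, 24 and 16 with Veh. The Veh range enclosed the Hcy range, and the log2 fold change was -0.07 (SE 0.29, edgeR adjusted p = 0.954), with a 95% interval from -0.73 to 0.59. Ptgir, which encodes the prostacyclin receptor and lies on chromosome 1 from 78833157 to 78837623, had 5, 0 and 1 counts with Hcy and 1, 2 and 3 with Veh. Both groups summed to 6 counts, so nothing is read from its fitted log2 fold change of 0.05 (edgeR adjusted p = 0.9903), which is part of the range and median of the 8 genes above. A difference was not detectable at this depth. Ptger2, which encodes EP2, the other prostaglandin E2 receptor that raises cyclic AMP, lies on chromosome 15 from 19338175 to 19350210 and had 0 counts in all 6 libraries. A count of 0 allows up to 3 counts, or 0.178 to 0.215 CPM, in each.

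**Figure D3:**
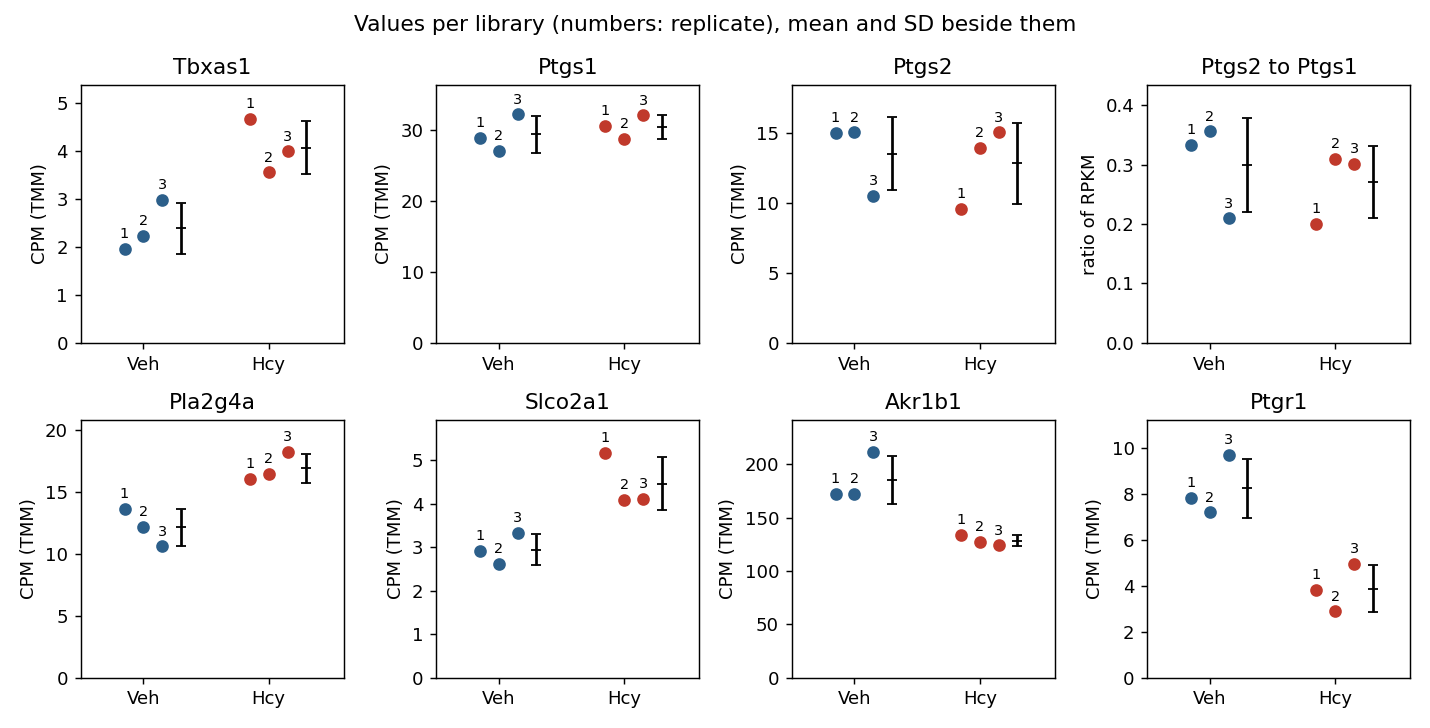
Values of 7 genes in CPM and of the Ptgs2 to Ptgs1 ratio in RPKM (y axes, from 0) by group (x axes), with points for libraries and bars for the group mean and SD of 3 libraries. Ptgs2 and the ratio have 1 low library in each group, at 0.201 in Hcy and 0.210 in Veh for the ratio, while Ptgr1 and Akr1b1 lie lower in all Hcy libraries than in all Veh libraries.

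The rest of the pathway was read from 7 lists with 71 genes in the table, of which 49 were tested. Of these, 1 was called, the downregulated Ptgr1, beside 0.486% of all genes tested (0.233% lower), and 2 passed the adjusted p without a fold threshold, both lower in Hcy, where 1.01% of all genes tested passed it as lower and 1.32% as higher. At an unadjusted p of at most 0.05, 7 of the 49 passed, 5 higher and 2 lower, beside 13.4% of all genes tested. The median log2 fold change of the 49 genes was 0.01, with 27 higher and 22 lower in Hcy, beside -0.02 over all genes. In 13 of the 49 the groups did not overlap, 10 higher and 3 lower in Hcy, beside 20.1% of all genes tested (10.8% higher and 9.27% lower).

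Among genes of transport and breakdown, Ptgr1 encodes prostaglandin reductase 1, which inactivates prostaglandins and leukotriene B4. Its levels were 3.81, 2.89 and 4.95 CPM in Hcy and 7.84, 7.20 and 9.69 CPM in Veh. The groups did not overlap, and the mean fell from 8.24 ± 1.29 CPM to 3.88 ± 1.03 CPM (SD, n = 3 each). The log2 fold change was -1.08 (SE 0.22, edgeR adjusted p = 0.0443). The call was lost when any of the 6 libraries was left out, where the log2 fold change ran from -1.30 to -0.91 and the adjusted p from 0.0374 to 0.171. Without Veh replicate 3, Ptgr1 kept the adjusted p, at 0.0374, and missed only the fold threshold, at -0.95. The 5 genes tested in this list had a median log2 fold change of 0.00. Slco2a1, the prostaglandin uptake carrier, was the other gene of this list with an unadjusted p of at most 0.05 and is named after its values were seen. It was at 5.17, 4.10 and 4.12 CPM in Hcy and at 2.91, 2.61 and 3.32 CPM in Veh. All Hcy libraries were higher, but its log2 fold change of 0.60 did not pass the test (SE 0.20, edgeR adjusted p = 0.221). Hpgd, which starts prostaglandin inactivation, had at most 3 counts in any library and was not tested.

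Among the other synthases, 2 of 5 genes in the table were tested. Akr1b1 encodes aldose reductase, which can also make prostaglandin F2-alpha. Its levels were 134, 127 and 124 CPM in Hcy and 172, 173 and 212 CPM in Veh. The libraries did not overlap, and Akr1b1 fell with a log2 fold change of -0.53 (SE 0.09, edgeR adjusted p = 0.0232), short of the fold threshold. Its adjusted p reached 0.141 with Hcy replicate 3 left out, was above 0.05 when any Hcy library or Veh replicate 2 was left out, and was 0.00267 without Veh replicate 3. The 5 other rows that share its protein match held 0.765% of its counts. The nearest row, Akr1b8, is not one of these and is named after its values were seen. It held 94642 counts, against 14504 for Akr1b1, and was lower in Hcy (log2 fold change -0.96, edgeR adjusted p = 0.000965). Reads that match both Akr1b1 and Akr1b8 were not measured. Hpgds, the blood-cell type prostaglandin D synthase, had 0 counts in all libraries, and Ptgds and Cbr1 had at most 3 counts in any. Of the 10 mural markers, 5 had negative log2 fold changes, as Akr1b1 and Ptgr1 did, Acta2, Cnn1 and Tagln with an adjusted p under 0.05, and 5 had positive ones. The 6 epithelial markers summed to 0.934 to 1.41 CPM in Hcy and 2.91 to 3.57 CPM in Veh. Of these, Cldn4 was called as lower (log2 fold change -1.92, edgeR adjusted p = 0.0165). Krt8, at -0.28, and Cdh1, at 0.55, did not pass. Among fibroblast markers, Col1a1 was at -0.52 and Col3a1 at 0.47, and 0 passed. The part of these mural, epithelial and fibroblast markers in the Akr1b1 and Ptgr1 differences was not tested.

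Arachidonate release was tested with 9 of 16 genes, and 0 passed the adjusted p in edgeR. At an unadjusted p of at most 0.05, Pla2g4a and Mgll did so in edgeR, beside 13.4% of all genes tested, and 2 genes in DESeq2, beside 1636 of all 14603. Pla2g4a encodes the cytosolic phospholipase A2 that supplies the cyclooxygenases. Its levels were 16.0, 16.5 and 18.2 CPM in Hcy and 13.6, 12.2 and 10.6 CPM in Veh. The groups did not overlap, with a log2 fold change of 0.48 (SE 0.13, edgeR adjusted p = 0.112, between 0.0623 and 0.386 over the alternatives). Mgll encodes monoacylglycerol lipase, a source of arachidonate in brain, and had the highest level per length of this list, at 64.8 ± 6.13 RPKM in Hcy and 52.3 ± 6.94 RPKM in Veh (SD, n = 3 each). Its log2 fold change was 0.31 (SE 0.11, edgeR adjusted p = 0.248).

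The other prostanoid receptors were Ptger1, Ptger3, Ptgfr, Ptgdr2 and Tbxa2r, of which 3 were tested and 0 passed the adjusted p or an unadjusted p of 0.05 in edgeR or DESeq2. Ptger1 encodes EP1, the calcium-linked prostaglandin E2 receptor, and its row held the highest receptor level, at 19.2 ± 1.16 RPKM in Hcy and 20.2 ± 1.34 RPKM in Veh (SD, n = 3 each). Whether counting used the strand is not given in the sources used here, so the Ptger1 level is uncertain. Tbxa2r encodes the thromboxane receptor and had 37, 42 and 40 counts with Hcy and 36, 31 and 29 with Veh. In CPM its groups did not overlap, and the log2 fold change was 0.36 (SE 0.22, edgeR adjusted p = 0.547). Ptger3 and Ptgfr had 0 counts in all libraries, and Ptgdr2 had at most 4 in any.

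Cyclic AMP signalling, the route by which EP2, EP4 and the prostacyclin receptor act, had 23 of 26 genes tested, 14 higher and 9 lower in Hcy, with a median log2 fold change of 0.04. None passed the adjusted p in edgeR, and 2 of the 23 had an unadjusted p of at most 0.05 in edgeR, beside 13.4% of all genes tested, and 2 in DESeq2. In edgeR these were Prkar2b and, named after its values were seen, Crem. Prkar2b, a regulatory subunit of protein kinase A, was at 4.88 ± 0.427 CPM with Hcy and 3.02 ± 0.378 CPM with Veh (SD, n = 3 each). Its log2 fold change was 0.69 (SE 0.19, edgeR adjusted p = 0.129). Crem, a transcription factor gene that cyclic AMP induces, had a log2 fold change of 0.24 (edgeR adjusted p = 0.338). Prkar1a had the highest level per length of the list, at 220.0 ± 1.87 RPKM in Hcy and 212 ± 5.77 RPKM in Veh (SD, n = 3 each), and a log2 fold change of 0.06 (edgeR adjusted p = 0.774).

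The leukotriene and lipoxygenase branch, which competes for the same arachidonate, had 4 of 10 genes tested, and 0 passed the adjusted p or an unadjusted p of 0.05 in edgeR or DESeq2. Of these 4, Lta4h was the sole gene with more than 11 counts in a library. The median log2 fold change of the list, 0.49, rests on the other genes. Lta4h encodes the enzyme that makes leukotriene B4 and was at 100.0 ± 6.60 CPM with Hcy and 89.2 ± 6.13 CPM with Veh (SD, n = 3 each). Its log2 fold change was 0.16 (SE 0.08, edgeR adjusted p = 0.468), or 0.11 without Veh replicate 2. Alox5, the 5-lipoxygenase gene, had at most 6 counts in any library, and Ltc4s and Cysltr1 had 0. All 3 PPAR genes, nuclear receptors for fatty acid products, were tested and 0 passed either p in edgeR or DESeq2. Ppard had the highest level of them, at 18.9 ± 0.427 RPKM in Hcy and 20.3 ± 1.10 RPKM in Veh (SD, n = 3 each), with a log2 fold change of -0.10 (edgeR adjusted p = 0.626), or -0.05 without Veh replicate 1.

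**Figure D4:**
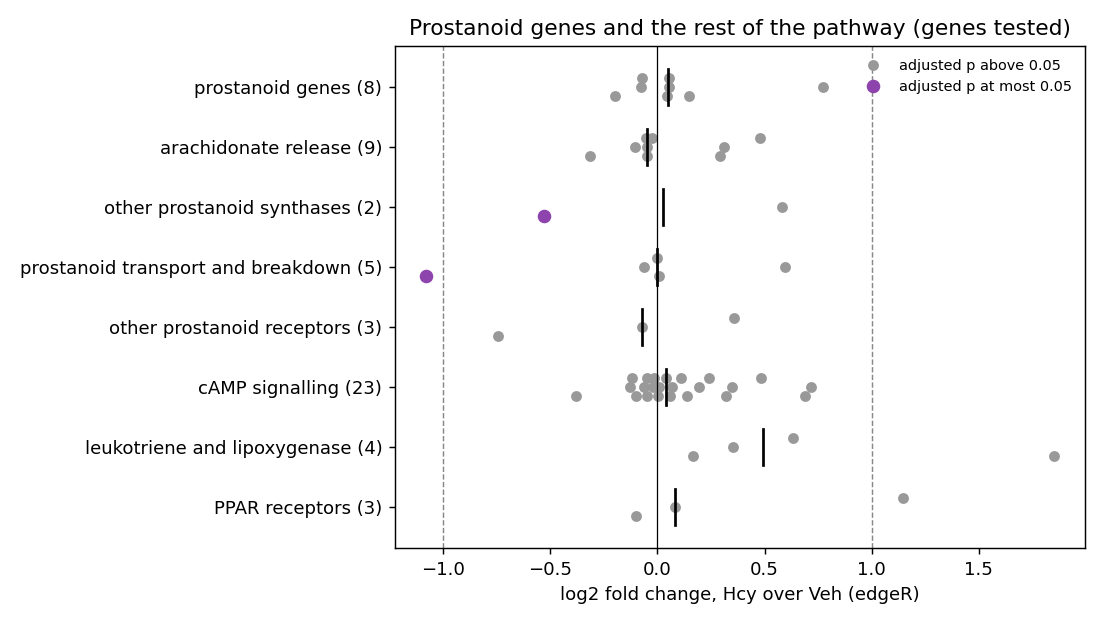
Log2 fold change of Hcy over Veh (x axis) for the tested prostanoid genes and the tested genes of 7 pathway lists (y axis, number of genes in brackets), with points for genes, black bars for list medians and dashed lines at a log2 fold change of 1 in either direction. Akr1b1, at -0.53, and Ptgr1, at -1.08, are the 2 points with an adjusted p of at most 0.05, and no prostanoid gene passes it.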

How the data were processed

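RNA-seq of 6 rBMEC libraries, 3 Hcy and 3 Veh, grouped by their labels, was analysed from poly(A)-selected, paired-end libraries. The authors deposited raw read counts per gene, with gene lengths and positions. The submitters' processing notes name fastp, HISAT2 2.2.1, StringTie 2.2.3, featureCounts 2.0.6, Cufflinks, DESeq2 1.42.0 and the build mRatBN7.2 (rn7), without roles. Listed positions on chromosome 1 reach 282724300, past the end of that chromosome in that build, so printed positions are as listed, with no build. The authors' table of their own comparison (normalized values, fold changes, p-values) was not used.

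Computation used R 4.3.3, edgeR 4.0.16 and DESeq2 1.42.0. Genes with at least 10 summed counts were kept, counts were scaled by TMM, and Hcy was set against Veh in edgeR (quasi-likelihood F test, no covariate). Standard errors are the log2 fold change over the root of F, and 95% intervals use the t distribution of the same fit. Calls used the study's thresholds. Scripts were tested on simulated data. No pair of replicates agreed within sampling noise in a chi-square test of counts.

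The members and lists were chosen with earlier results of these data known. All members were named, with each list's genes past the adjusted p or else its gene of smallest p and of highest RPKM, and the 5 genes most correlated with the member of smallest p. Where a symbol had several rows, that with most counts was used. Alternatives were DESeq2, other scalings and count minimums, a replicate block, other call rules, a prior count of 2, and leaving out each library.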

Additional observations from a re-analysis of the deposited data

How the results depend on the processing

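The count of prostanoid genes called, 0, was the same under all 14 alternatives. Over all genes, 71 were called, 109 with no count minimum, 374 by unadjusted p with the fold threshold kept, 341 without the fold threshold, and 39 to 112 with a library left out, most without Veh replicate 3. In the other pathway lists 1 gene was called, 2 without the fold threshold and 0 with any library left out. A replicate block gave 82 calls in all, 0 among prostanoid genes, 1 in the other lists, and a Ptgir log2 fold change of -0.0898 in place of 0.05, from 12 counts. Deviations from the group mean correlated at 0.0237 to 0.166 between libraries of the same replicate number (mean 0.0828). Between libraries of other numbers they correlated at -0.184 to 0.129 (mean -0.0415). Deviations within groups of 3 balance around 0, so these values do not settle whether the numbers pair the libraries. With a library left out, Ptges2 ran from -0.29 to -0.10 and Ptges3 from 0.10 to 0.23, and without Veh replicate 3 an unadjusted p of at most 0.05 was met by 2 prostanoid genes, Tbxas1 and Ptges3, in place of 1, by 11 genes of the other lists in place of 7, and by 3018 of all 14352 genes in place of 1955 of 14603. The sign turned for Ptgs1 (-0.0047 to 0.12), Ptgs2 (-0.22 to 0.10), Ptges (-0.0077 to 0.12), Ptger4 (-0.24 to 0.089), Ptgir (-0.30 to 0.61) and the log2 ratio of Ptgs2 to Ptgs1 (-0.38 to 0.0648). Without Hcy replicate 1 or Veh replicate 3, Ptgir fell below the count minimum and has no value in its range. Why these values moved was not tested. Counts were low for Ptgir and the prostacyclin synthase match, and a count of 0 for Ptger2 does not show that it is absent.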

Other observations

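An unnamed row on the minus strand, chosen after its place was seen, lies on chromosome 13 from 67347035 to 67350907 and ends 179 bases before the listed start of Ptgs2. Its levels in replicates 1, 2 and 3 were 1.87, 1.68 and 1.85 CPM with Hcy, against 1.78, 2.48 and 1.94 CPM with Veh. The groups overlapped, with an edgeR log2 fold change of -0.20 (SE 0.25, adjusted p = 0.812). It held 25 to 39 counts a library, too few to compare the order of its libraries with that of Ptgs2.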
